A study of Mus musculus with 6 samples.

Results

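The 10 genes described here are markers of endoplasmic reticulum (ER) stress and of the integrated stress response: Hspa5, Dnajb9, Herpud1, Xbp1, Ddit3, Atf4, Asns, Trib3, Chac1 and Sesn2. They were taken by symbol from the 22180 genes of 6 mouse arrays, and each is read by 1 probe set, the only one annotated to that symbol alone. They were chosen by known function and, in part, by measured values, the day 3 peak of Ddit3 and Hspa5 on these arrays, so the values below are a description and carry no test. The study followed mouse embryonic fibroblasts that were induced toward parvalbumin (PV) neurons, which are fast-spiking inhibitory neurons. The groups were the fibroblasts (MEF), induced PV (iPV) cells at 3, 7 and 14 days post infection (dpi), GFP+ iPV cells sorted at 14 dpi, and a sample labelled endogenous parvalbumin neurons.

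All 6 samples came from C57BL/6 mice carrying the PV-GFP transgene, were labelled as 13.5 day embryos, and shared 1 protocol of fibroblast culture in D10 medium and infection with adenovirus, the MEF and endogenous PV samples included. The virus cargo is not given in the labels. Each group had 1 array, so differences are between single arrays, without a replicate check, and do not describe the conditions. In the PV-GFP mice green fluorescence marks parvalbumin cells, and the sort kept cells with that fluorescence.

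Proteins that enter the ER are folded there by chaperones, and unfolded protein activates 3 sensors in the ER membrane, IRE1, ATF6 and PERK. IRE1 splices the Xbp1 transcript and ATF6 is cut to release a transcription factor, and both raise chaperone and degradation genes. PERK is 1 of several kinases that phosphorylate the translation factor eIF2alpha, which lowers protein synthesis while translation of ATF4 goes up; ATF4 then raises genes of amino acid supply and, with continued stress, Ddit3, which encodes the transcription factor CHOP. The other eIF2alpha kinases answer amino acid shortage, viral double-stranded RNA and haem shortage, and the shared output is called the integrated stress response.

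Promoter sequences of the 10 genes were read from RefSeq (build GRCm38.p6) over the 250 bases before each transcription start, and all 10 were found. Known response motifs were searched on both strands. The ER stress response element (ERSE), bound by ATF6 with NF-Y, was searched as CCAAT, 9 bases of any kind and CCACG. Its variant ERSE-II was searched as ATTGG, 1 base and CCACG. The composite site of C/EBP and ATF proteins, through which ATF4 and CHOP act, was searched as TGATGCAA and as the variant TGATGAAA found in Asns. The core TGACGTGG of the unfolded protein response element (UPRE) was also searched. The 4 promoters with a match are shown 5′ to 3′ on the strand of the gene, because they place the motifs of both branches in the genes whose values follow. Capitals mark the match, which for ERSE and ERSE-II includes the bases between both parts.

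Hspa5, chr2:34771840-34772089, plus strand: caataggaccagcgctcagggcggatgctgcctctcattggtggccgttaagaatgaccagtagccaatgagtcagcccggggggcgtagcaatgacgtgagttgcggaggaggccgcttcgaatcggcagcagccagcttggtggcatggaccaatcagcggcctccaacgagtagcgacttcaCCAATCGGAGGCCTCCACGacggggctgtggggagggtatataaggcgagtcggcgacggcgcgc
Herpud1, chr8:94386179-94386428, plus strand: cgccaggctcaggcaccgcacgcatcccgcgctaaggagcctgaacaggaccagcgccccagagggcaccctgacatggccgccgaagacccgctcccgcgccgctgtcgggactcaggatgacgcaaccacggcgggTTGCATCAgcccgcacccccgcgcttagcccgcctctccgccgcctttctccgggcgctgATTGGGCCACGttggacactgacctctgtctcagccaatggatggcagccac
Chac1, chr2:119350992-119351241, plus strand: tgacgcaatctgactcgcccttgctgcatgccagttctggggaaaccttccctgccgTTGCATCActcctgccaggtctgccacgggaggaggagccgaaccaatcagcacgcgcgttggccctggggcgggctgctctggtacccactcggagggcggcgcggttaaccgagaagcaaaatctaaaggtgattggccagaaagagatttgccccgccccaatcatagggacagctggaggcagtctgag
Asns, chr6:7693210-7693459, minus strand: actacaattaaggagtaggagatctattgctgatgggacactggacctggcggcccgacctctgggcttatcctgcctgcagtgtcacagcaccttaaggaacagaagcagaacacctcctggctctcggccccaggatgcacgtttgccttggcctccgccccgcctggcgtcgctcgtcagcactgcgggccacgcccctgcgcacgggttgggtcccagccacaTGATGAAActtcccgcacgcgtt

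ERSE occurred in Hspa5, from 65 to 47 bases before the start, and in 37 of 32851 promoters of this length in all (0.113%). ERSE-II occurred in Herpud1, from 52 to 42 bases before the start, and in 10 promoters in all (0.0304%). The C/EBP-ATF composite occurred in Herpud1, from 112 to 105 bases before the start, and in Chac1, from 193 to 186, both in the reverse orientation, and in 260 promoters in all (0.791%). The variant occurred in Asns, from 23 to 16 bases before the start, and in 290 promoters in all (0.883%). The UPRE core was in 185 promoters (0.563%) and in no promoter of the 10 genes. A match is a match of letters and not a binding site, and no match says only that these letters are not in this window.

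Values are log2 intensities as the authors deposited them. A floor was set at 5.01, the median of the table without control probe sets, lower values were set to it, and a gene entered a comparison if it was above the floor on at least 1 of both arrays. All 10 genes were above the floor on all 6 arrays. As the only available error, the spread between the log2 differences of different probe sets of 1 gene was taken for each pair of arrays. Its standard deviation lay between 0.27 and 0.50 over the 15 pairs, and it leaves out variation between cultures and animals. The text calls a difference beyond the probe set spread when it exceeds that standard deviation, and at least 2-fold when it is 1 or more on the log2 scale. The plot of the 10 genes by array shows all values.

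**Figure D1:**
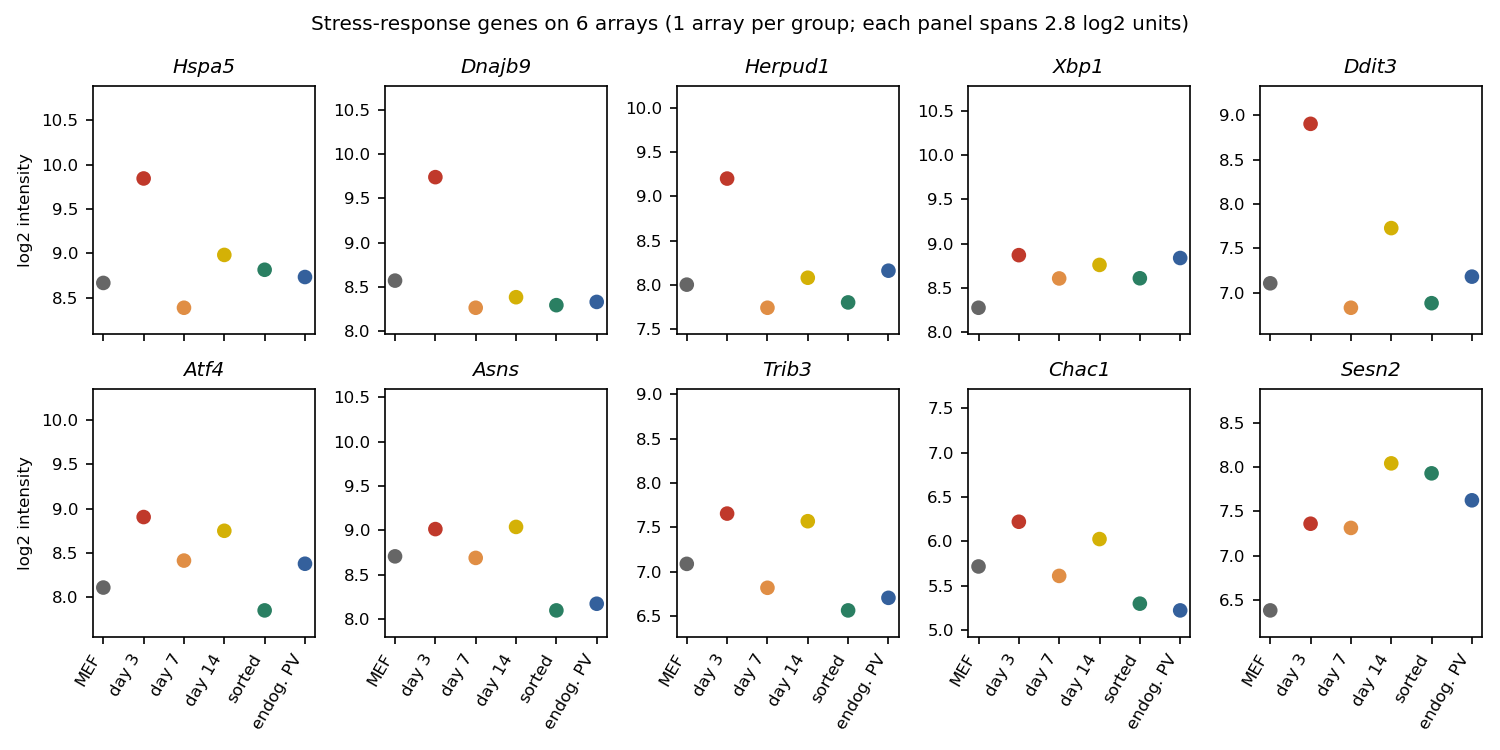
Log2 intensity (vertical axis) of the 10 stress genes on the 6 arrays (horizontal axis), 1 point per array. Every panel spans the same number of log2 units at its own height, so differences, but not levels, can be compared between panels. Ddit3, Hspa5, Herpud1 and Dnajb9 stand highest at day 3 and lowest at day 7, whereas Sesn2 is lowest in MEF and highest at day 14.

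The ER chaperones and the degradation gene were highest at day 3 and lowest at day 7. Hspa5 encodes BiP, the main chaperone of the ER lumen, which also holds the stress sensors inactive. Hspa5 had a log2 level of 8.67 in MEF and of 9.84, 8.39 and 8.98 at days 3, 7 and 14, with 8.82 in sorted cells and 8.73 on the endogenous PV array. Day 3 stood apart from day 14, the next highest, by 0.86, and the other neighbours in this order differed by less than the probe set spread. Dnajb9 encodes ERdj4, a co-chaperone of BiP that assists degradation of misfolded proteins. Dnajb9 had a log2 level of 8.57 in MEF and of 9.74, 8.27 and 8.38 at days 3, 7 and 14, with 8.29 in sorted cells and 8.33 on the endogenous PV array. Only day 3 stood apart, 1.17 above MEF, and the 4 later or other arrays lay within 0.12 of each other. Herpud1 encodes a membrane protein of the ER-associated degradation complex. Herpud1 had a log2 level of 8.005 in MEF and of 9.20, 7.74 and 8.08 at days 3, 7 and 14, with 7.80 in sorted cells and 8.16 on the endogenous PV array. Day 3 lay 1.04 above the endogenous PV array, the next highest, and no other neighbours differed beyond the spread.

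Xbp1 encodes the transcription factor made after splicing by IRE1. Xbp1 had a log2 level of 8.28 in MEF and of 8.87, 8.61 and 8.76 at days 3, 7 and 14, with 8.61 in sorted cells and 8.84 on the endogenous PV array. No neighbours in this order differed beyond the spread, and its range of 0.59 was the narrowest of the 10 genes. The value is of the transcript as a whole, and splicing was not measured.

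Ddit3 had the widest range of the 10 genes, 2.07 log2 units. CHOP, its product, is a transcription factor linked to cell death under prolonged stress. Ddit3 had a log2 level of 7.11 in MEF and of 8.91, 6.83 and 7.73 at days 3, 7 and 14, with 6.88 in sorted cells and 7.18 on the endogenous PV array. Day 3 lay 1.18 above day 14, and day 14 lay beyond the spread above the endogenous PV array, while the 4 lowest arrays did not differ beyond it between neighbours.

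Atf4, Asns, Trib3 and Chac1 were higher at day 3 and day 14 than on the other arrays. Against MEF, Asns stayed within the spread at both days, and Chac1 did at day 14. Under the centring on housekeeping genes described below, none of these genes was higher than MEF beyond the spread at day 14. Atf4 itself is regulated mostly through translation, which an array does not read. Atf4 had a log2 level of 8.11 in MEF and of 8.91, 8.42 and 8.75 at days 3, 7 and 14, with 7.85 in sorted cells and 8.38 on the endogenous PV array. Day 3 and day 14 differed by 0.15, within the spread, and day 14 lay beyond it above day 7. Asns encodes asparagine synthetase. Asns had a log2 level of 8.71 in MEF and of 9.01, 8.69 and 9.04 at days 3, 7 and 14, with 8.10 in sorted cells and 8.17 on the endogenous PV array. The sorted and endogenous PV arrays were the lowest, and day 7 lay beyond the spread above the higher of them.

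Trib3 encodes a pseudokinase that is a target of CHOP and ATF4 and restrains ATF4. Trib3 had a log2 level of 7.09 in MEF and of 7.65, 6.82 and 7.57 at days 3, 7 and 14, with 6.56 in sorted cells and 6.70 on the endogenous PV array. Day 3 and day 14 were nearly level, and day 14 lay beyond the spread above MEF. Chac1 encodes an enzyme that degrades glutathione. Chac1 lay near the floor, with a log2 level of 5.72 in MEF and of 6.22, 5.61 and 6.03 at days 3, 7 and 14, with 5.30 in sorted cells and 5.22 on the endogenous PV array. Its order was that of Trib3 except that the sorted and endogenous PV arrays changed places, and no neighbours differed beyond the spread.

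Sesn2 departed from the other 9 genes. It encodes sestrin 2, a leucine sensor that restrains the growth kinase mTORC1 and responds to oxidative and ER stress. Sesn2 had a log2 level of 6.38 in MEF and of 7.36, 7.31 and 8.04 at days 3, 7 and 14, with 7.93 in sorted cells and 7.63 on the endogenous PV array. MEF lay 0.93 below the next array, and the other 5 arrays formed an order without a gap beyond the spread. Of the 10 genes, 8 were highest at day 3 and Asns and Sesn2 at day 14, of which the day 3 count follows in part from how the list was made; among all 14295 genes above the floor on any array, 15.999% were highest at day 3. The lowest array was day 7 for 4 genes, against 13.8% of all genes, sorted cells for 3, against 10.3%, MEF for 2, against 22.2%, and the endogenous PV array for 1, against 11.2%.

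At day 3 against MEF all 10 genes were higher, against 52.7% of the 13439 genes compared, and 4 of them at least 2-fold, against 2.37%. The 4 were Ddit3 at 3.48-fold, Herpud1 at 2.29-fold, Hspa5 at 2.26-fold and Dnajb9 at 2.24-fold. Sesn2 followed at 1.97-fold and Atf4 at 1.74-fold, and Asns was the least different at 1.24-fold. Of the 10, 9 were higher beyond the probe set spread of 0.32, against 21.2% of all genes. At a 1.5-fold limit 7 were higher, against 8.34%. Their median log2 difference was 0.89, against 0.021 over all genes. Ddit3 and Hspa5 were chosen in part for their day 3 peak, so these counts and the median follow in part from that choice. Centring on housekeeping genes subtracted the median level of 19 such genes on each array, 8.42 in MEF and 8.70 at day 3. It lowered the median of all genes at day 3 to -0.23. The median of the 10 was then 0.61 and Ddit3 alone stayed at least 2-fold higher. The median difference of the housekeeping genes themselves went from 0.070 to -0.21, so the centring shifted values by more than that difference.

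**Figure D2:**
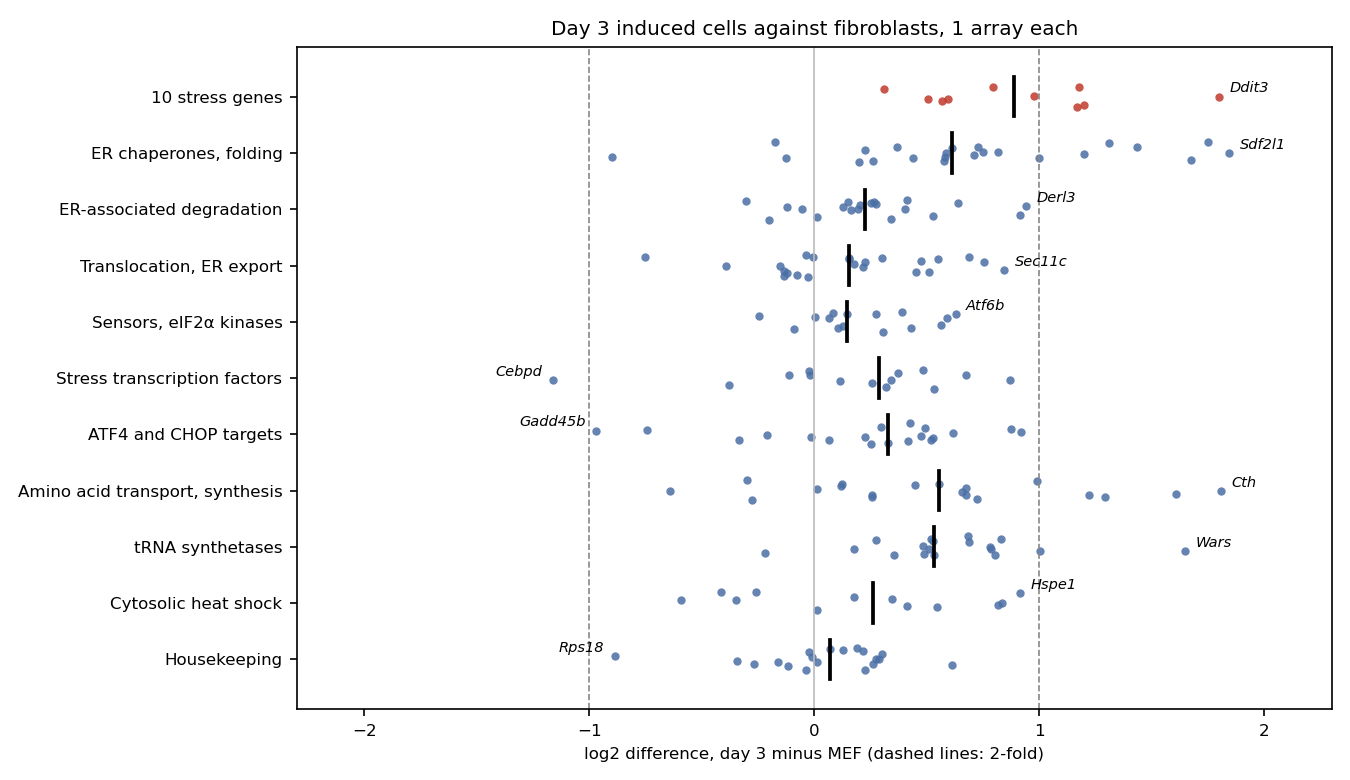
Log2 difference, day 3 minus MEF (horizontal axis), of every gene above the floor in the 10 stress genes (red) and in other gene lists (blue), with the median of each list as a black bar and the 2-fold limits as dashed lines. Small vertical offsets only separate points. The median is 0.89 for the 10 genes, 0.61 for ER chaperones and 0.070 for housekeeping genes.

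Among ER chaperones and folding enzymes other than the 10, 20 of 23 were higher at day 3 and 6 at least 2-fold, with a median of 0.61. The largest log2 differences were 1.84 for Sdf2l1, a partner of BiP's co-chaperones, 1.75 for Creld2, an ER-resident folding protein, 1.67 for Hyou1, a large chaperone and exchange factor of BiP, and 1.43 for Dnajb11, the co-chaperone ERdj3. Hyou1 had a log2 level of 8.33 in MEF and of 10.0005, 8.64 and 8.82 at days 3, 7 and 14, with 8.58 in sorted cells and 8.73 on the endogenous PV array. Day 3 was the highest array, as for Hspa5, but Hyou1 was lowest in MEF and Hspa5 at day 7. None of 20 genes of ER-associated degradation was 2-fold different in either direction. Their median of 0.22, like those of 0.15 for 23 genes of translocation and ER export, 0.14 for 15 sensors and eIF2alpha kinases and phosphatases and 0.26 for 12 cytosolic heat shock proteins, fell below 0 under centring on housekeeping genes.

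Of the 3 sensor genes, Ern1 and Atf6 were higher at day 3 beyond the spread. Ern1, which encodes IRE1, had 7.05 in MEF and 7.64 at day 3, a difference of 0.59. Atf6 had 8.34 in MEF and 8.73 at day 3, a difference of 0.39. Under centring on housekeeping genes these differences were 0.31 and 0.11, within the spread. Eif2ak3, which encodes PERK, lay between 6.81 and 7.09 on all 6 arrays. The kinases of haem shortage (Eif2ak1), of double-stranded RNA (Eif2ak2) and of amino acid shortage (Eif2ak4) differed by 0.083, 0.064 and -0.25 at day 3, all within the spread. Atf3, a stress transcription factor often raised with Ddit3, was 6.40 in MEF and 6.02 at day 3, lower by 0.38. Cebpd, a stress transcription factor of the C/EBP family, was 1.16 lower at day 3, the only 2-fold difference among 14 stress transcription factors, whose median was 0.29.

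Genes of amino acid supply were higher at day 3 together with the chaperones. Of 19 genes of amino acid transport and synthesis, 16 were higher and 4 at least 2-fold, with a median of 0.55. These 4 were Cth, which makes cysteine, at 1.81, Slc7a5, a transporter of large neutral amino acids, at 1.61, Got1, the cytosolic aspartate aminotransferase, at 1.29, and Slc1a4, a neutral amino acid transporter, at 1.22. Among cytosolic aminoacyl-tRNA synthetases 17 of 18 were higher, with Wars at 1.65 and Iars at 1.004, and the median was 0.53. Other known targets of ATF4 and CHOP had a median of 0.33 over 19 genes with none 2-fold different, and of 0.050 with 2 genes at least 2-fold lower under centring on housekeeping genes. Genes of the NRF2 oxidative stress response were higher in 12 of 13, none at least 2-fold, at a median of 0.52, and 16 relatives of the 10 genes, such as other tribbles and sestrins, had 0.079. Housekeeping genes had a median of 0.070 over 19, and it and that of the relatives turned negative under that centring. The same centring left the chaperones at a median of 0.33 with 5 at least 2-fold higher, the amino acid genes at 0.22 with 3, the tRNA synthetases at 0.25 with 1, and the NRF2 genes at 0.24.

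The promoters of the chaperone list held ERSE in 7 of the 20 genes with a promoter sequence, against 0.113% of all promoters: Creld2, Pdia6, Dnajc3, Calr, Canx, Ero1b and Hsp90b1. The matches of 4 of these genes are shown with 20 bases on each side, 5′ to 3′ on the strand of the gene, because they set the element of Hspa5 beside those of chaperones with their own differences. Capitals mark the element, which reads in reverse orientation in Creld2 and Calr.

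Creld2, chr15:88819500-88819558, plus strand: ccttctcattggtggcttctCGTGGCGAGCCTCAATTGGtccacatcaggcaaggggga
Pdia6, chr12:17266471-17266529, plus strand: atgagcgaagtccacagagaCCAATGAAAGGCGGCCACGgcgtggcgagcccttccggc
Dnajc3, chr14:118937807-118937865, plus strand: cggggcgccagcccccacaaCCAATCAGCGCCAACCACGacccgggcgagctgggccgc
Calr, chr8:84847055-84847113, minus strand: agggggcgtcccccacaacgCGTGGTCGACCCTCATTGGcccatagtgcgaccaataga

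At day 3 the log2 differences were 1.75 for Creld2, 1.20 for the disulfide isomerase Pdia6, 0.9996 for Dnajc3, a co-chaperone that lay just under 2-fold, and 0.75 for the calcium-binding chaperone Calr. Over all 15 genes outside the 10 that held ERSE and were above the floor, 13 were higher at day 3 against 52.7% of all genes, 3 at least 2-fold, and the median was 0.73. The 15 include the 7 chaperones named above, all of them higher, so these counts in part repeat the chaperone list. Of the 3, Creld2 and Pdia6 were from that list and Hnrnpa3, at 1.22, was not. The lower genes, Xlr3a and Zfp57, were outside that list. Of the genes outside the 10 with the C/EBP-ATF composite, 28 of 66 were higher, 2 were at least 2-fold higher and 4 at least 2-fold lower, and the median was -0.070. For the UPRE core the median was 0.086 over 97 genes. For ERSE-II 3 of 5 were higher, none at least 2-fold, with a median of 0.16 and Lgalsl lower by 1.39. For the C/EBP-ATF variant 30 of 61 were higher, with a median of -0.0011.

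Markers of other cells also differed between the day 3 and MEF arrays. All 10 macrophage markers above the floor were lower at day 3, 7 of them at least 2-fold, with a median of -1.39, and their mean floored log2 level was 6.46 in MEF and 5.31 at day 3. The defining markers Ptprc and Aif1 were under the floor on all 6 arrays. Of 12 fibroblast markers 10 were lower and 5 at least 2-fold, with mean levels of 11.11 in MEF and 10.41 at day 3. In bulk samples fewer cells of a type and less RNA per cell cannot be told apart, and the part of these cells in the differences of the stress genes was not tested.

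From day 3 to day 7 all 10 genes were lower, against 49.5% of all genes, and 4 of them at least 2-fold, against 0.87%. Beyond the probe set spread of 0.33 were 7 of the 10, against 17.8%. These 4 were the same 4 genes that were at least 2-fold higher at day 3: Ddit3 at -2.07, Dnajb9 at -1.47, Hspa5 at -1.46 and Herpud1 at -1.46 on the log2 scale, which is 4.21-fold lower for Ddit3. This comparison shares the day 3 array with the previous one, and its counts likewise follow in part from the choice of Ddit3 and Hspa5. At day 7 these 4 genes lay 0.26 to 0.31 below MEF, within the probe set spread of 0.38. Sesn2 hardly differed, at -0.047, and Xbp1 and Asns also stayed within the spread.

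Other chaperones were lower at day 7 too. Of 22, 19 were lower than at day 3 and 7 at least 2-fold, with a median of -0.65, led by Creld2 at -1.46, Sdf2l1 at -1.44, Hyou1 at -1.36 and Dnajb11 at -1.26. All 18 tRNA synthetases were lower, with Wars at -1.30 and a median of -0.51, and 17 of 20 amino acid genes were lower, with Cth at -1.30, Got1 at -1.28 and a median of -0.56. Cytosolic heat shock proteins had a median of -0.61, with the mitochondrial chaperonin Hspd1 of that list at -1.02. Stress transcription factors had a median of -0.057, with Cebpd higher by 1.52, and Ndrg1 was higher by 1.12 among ATF4 and CHOP targets. Macrophage markers were higher at day 7 in 10 of 10, with a mean level of 5.86. Fibroblast markers were higher in 9 of 12, Thy1 by 2.33 and Col3a1 by 1.74, with mean levels of 10.41 at day 3 and 10.96 at day 7. The part of these markers was not tested.

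From day 7 to day 14 all 10 genes were higher, none at least 2-fold, against 57.4% of all genes that were higher by any amount and 1.01% at least 2-fold. Beyond the probe set spread of 0.27 were 8 of the 10, against 23.5% of all genes, and 4 were higher at a 1.5-fold limit, against 5.61%. After quantile normalization, as after housekeeping centring, 5 were higher beyond the spread. The largest log2 differences were 0.90 for Ddit3, 0.75 for Trib3, 0.73 for Sesn2 and 0.60 for Hspa5, and Dnajb9 and Xbp1 differed by 0.12 and 0.15. The median of the 10 was 0.38, against 0.053 over all genes and 0.12 over housekeeping genes.

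Of 22 other chaperones 15 were higher at day 14 than at day 7, none at least 2-fold, and the median was 0.11. The tRNA synthetases were higher in 16 of 18, with a median of 0.31, and stress transcription factors in 12 of 13, with a median of 0.27. Ppp1r15a, which encodes GADD34, the phosphatase subunit that restores translation, was 6.27 at day 7 and 7.34 at day 14, higher by 1.08. Ddit4, a target that restrains mTORC1, was higher by 1.14, and Spcs3, a subunit of the signal peptidase, by 1.18. Differences between these lists were not tested. Cytosolic heat shock proteins were also higher, in 10 of 12.

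At day 14 against MEF, 9 of the 10 genes were higher, against 57.1% of all genes, and only Sesn2 at least 2-fold, at 3.16-fold, against 3.47%. At a 1.5-fold limit 3 were higher, against 11.7%. Ddit3 was higher by 0.62, Atf4 by 0.64, Trib3 by 0.48 and Xbp1 by 0.48, each beyond the spread of 0.43, as 5 of the 10 were with Sesn2, against 19.3% of all genes, and Dnajb9 was 0.19 lower, within it. Under centring on housekeeping genes, which lowered the median of all genes to -0.34, the median of 0.41 became -0.061 and 5 genes were higher and 5 lower. The median difference of the housekeeping genes themselves went from 0.16 to -0.31 under it, so the centring shifted values by more than that difference. Ddit3 was then at 0.15, Atf4 at 0.17, Trib3 at 0.013 and Xbp1 at 0.015, all within the spread, and of the 10 only Sesn2 stayed higher beyond it, at 1.19, and Dnajb9 was lower beyond it, at -0.65. After quantile normalization 3 were higher beyond the spread. Macrophage markers were lower at day 14 than in MEF in 9 of 11, 4 of them at least 2-fold, with mean levels of 5.78 and 6.46, and fibroblast markers in 9 of 12, with mean levels of 10.78 and 11.11. The part of these markers was not tested. Among other genes of the response, Ddit4 was higher by 1.61, the ER-membrane transcription factor Creb3l1 by 1.51, the lipoprotein receptor Vldlr by 1.29, Atf5, a relative of Atf4, by 1.24, and the ATF6 relative Atf6b by 1.03. Their lists as a whole differed less. Medians were 0.29 for 15 sensors and eIF2alpha kinases and phosphatases, 0.26 for 13 stress transcription factors and 0.38 for 19 ATF4 and CHOP targets. Under centring on housekeeping genes these became -0.13, -0.18 and -0.092. Then 1, 0 and 1 genes of these lists were at least 2-fold higher, and 1 of the first list was at least 2-fold lower.

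**Figure D3:**
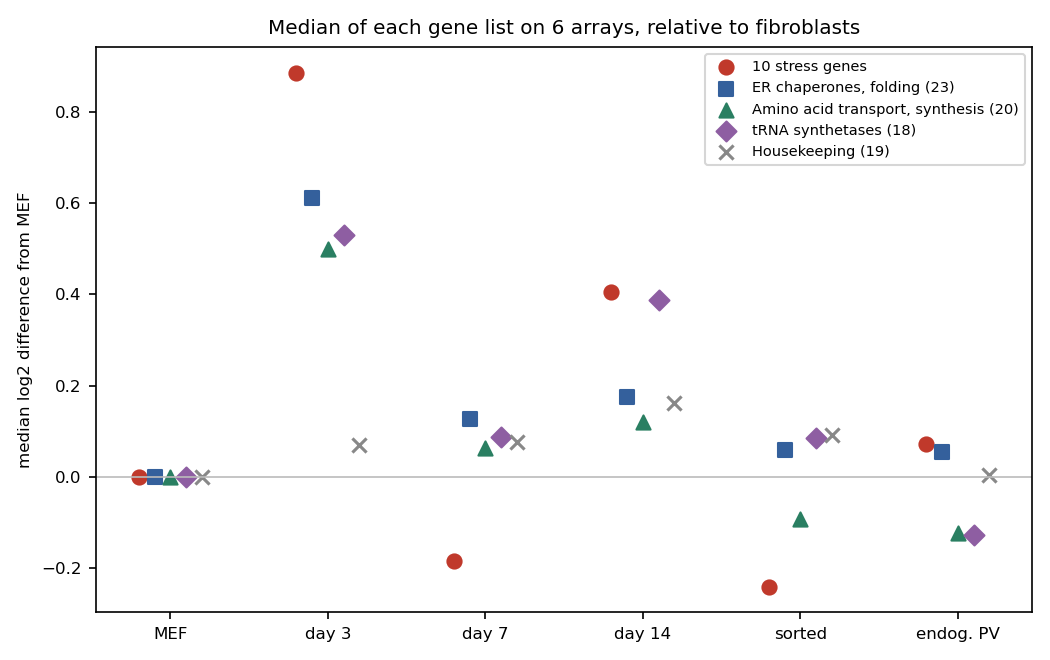
Median log2 difference from MEF (vertical axis) over the genes of 5 lists that were above the floor on any array, for each of the 6 arrays (horizontal axis), with points of 1 array set side by side. The 10 stress genes had medians of 0.89, -0.18 and 0.41 at days 3, 7 and 14, and the chaperones had 0.61, 0.13 and 0.18, where both day 14 medians fell below 0 under housekeeping centring.

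Atf4, Trib3, Asns, Ddit3 and Chac1 were lower beyond the probe set spread in the sorted GFP+ cells than in the unsorted cells of the same day. All 10 genes were lower in sorted cells, against 47.3% of all genes. Of them 5 were lower beyond the probe set spread of 0.33, against 14.6%, 5 by at least 1.5-fold, against 4.97%, and 1 by at least 2-fold, against 1.02%. These 5 were Trib3 at -1.01, Asns at -0.94, Atf4 at -0.90, Ddit3 at -0.85 and Chac1 at -0.73. The other 5 were Herpud1 at -0.28, Hspa5 at -0.17, Xbp1 at -0.15, Sesn2 at -0.11 and Dnajb9 at -0.090, each within the spread. No gene lay between 0.28 and 0.73 below the unsorted cells, so the values fell into separate groups, with the chaperones Hspa5 and Dnajb9, Herpud1, Xbp1 and Sesn2 in the group nearer 0. The promoters of Herpud1 and Chac1 both held the C/EBP-ATF composite, and these genes fell into different groups. The variant was in Asns, of the lower group, and the part of these motifs was not tested. The grouping was seen in the values and has no test. The median of the 10 was -0.50, against 0.021 over all genes.

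**Figure D4:**
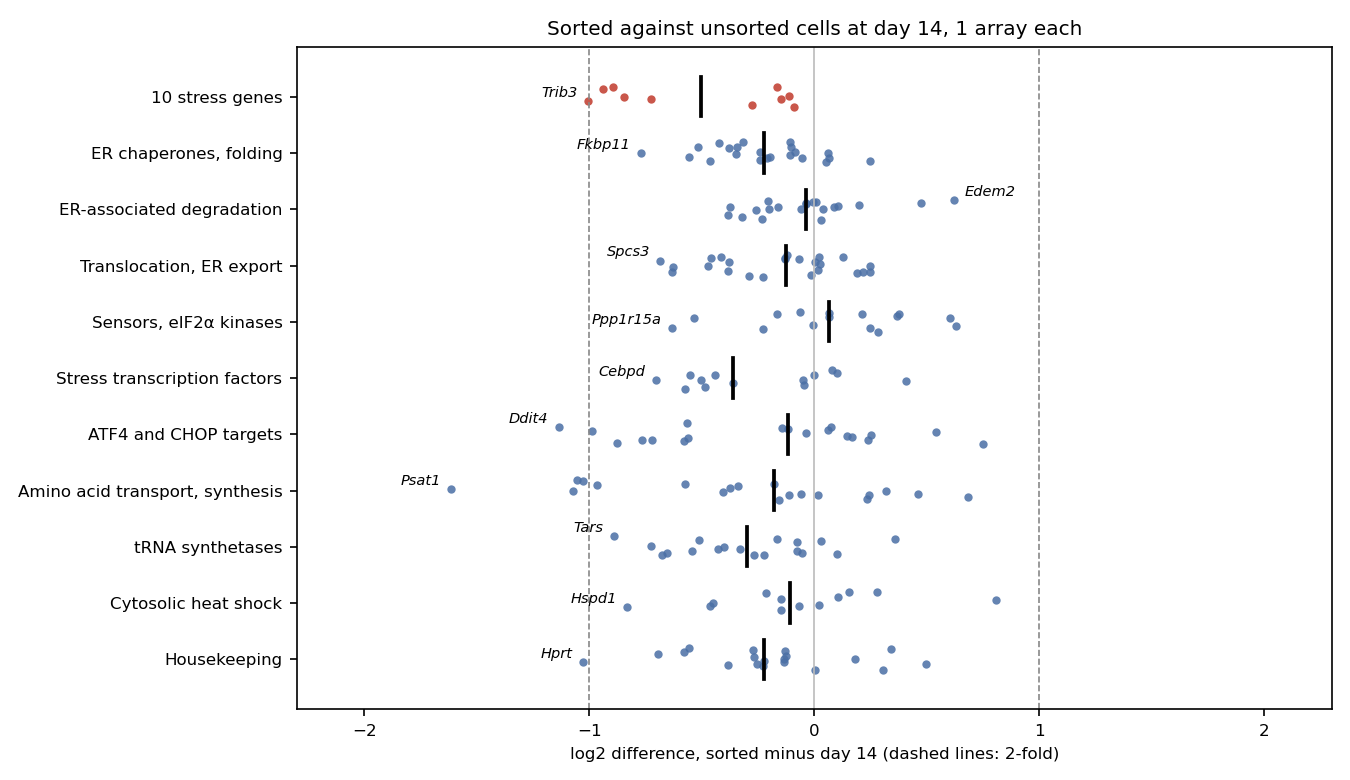
Log2 difference, sorted minus unsorted cells at day 14 (horizontal axis), of the genes above the floor in each list, with the median as a black bar and 2-fold limits as dashed lines. Among the 10 stress genes (red) 5 lie between -1.01 and -0.73 and 5 between -0.28 and -0.090. Amino acid genes reach -1.61.

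Of 19 genes of amino acid transport and synthesis, 13 were lower in sorted cells and 4 at least 2-fold. Psat1 and Phgdh, enzymes of serine synthesis, differed by -1.61 and -1.06, Cth by -1.07 and Aldh1l2, a mitochondrial folate enzyme, by -1.03. Under centring on housekeeping genes Psat1 alone stayed at least 2-fold lower, at -1.45, and with a floor at the 75th percentile Psat1 and Cth did. Psph, the other serine synthesis enzyme of the list, differed by -0.58, and Cbs, which acts before Cth, was near or under the floor and differed by -0.16. Psat1 had a log2 level of 7.66 in MEF and of 7.78, 7.28 and 7.69 at days 3, 7 and 14, with 6.07 in sorted cells and 6.46 on the endogenous PV array. The last 2 arrays were the lowest for Psat1, as for Asns, Trib3 and Chac1. Of the 9 transporters of the list, 5 were higher in sorted cells, 3 were lower and 1 was under the floor on both arrays. Slc7a5 was higher by 0.46 and Slc1a4 by 0.68, both beyond the spread, and Slc7a1, a transporter of basic amino acids, was at -0.41. The median of the whole list was -0.18. Other known targets of ATF4 and CHOP were mixed, with 11 of 19 lower and 8 higher. Their median was -0.12, and 0.050 under centring on housekeeping genes. Ddit4 was the only one of them at least 2-fold lower, at -1.14, or -0.97 under that centring. Of 18 tRNA synthetases 15 were lower with a median of -0.30, and 10 of 13 stress transcription factors with a median of -0.36.

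Housekeeping genes were lower in sorted cells as well, in 14 of 19 with a median of -0.23 and Hprt at -1.03. Centring on them moved the median of all genes to 0.18 and that of the 10 genes to -0.34, and left 7 of the 10 lower, 5 of them beyond the spread, with Trib3 at -0.84 and no gene at least 2-fold lower. Macrophage markers were lower in 9 of 11, Lyz2 by 2.04, with mean floored log2 levels of 5.78 in unsorted and 5.31 in sorted cells. Neuron markers were higher in 6 of 9, with Tubb3 at 1.39, Snap25 at 1.15 and Map2 at 1.12 and mean levels of 5.96 and 6.41, while the defining markers Dcx and Elavl4 were under the floor on all 6 arrays. The part of these markers and of the sorting procedure in the differences was not tested.

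Against MEF, sorted cells had 3 of the 10 genes higher and 7 lower, against 42.3% of all genes that were lower, with a median of -0.24, against 0.085 over all genes. Sesn2 was at least 2-fold higher, at 2.92-fold, against 6.04% of all genes, and none was 2-fold lower. Asns was lower by at least 1.5-fold, against 7.71%. Lower beyond the spread of 0.50 were Asns at -0.61 and Trib3 at -0.52, 2 of 10 against 9.82% of all genes. Under centring on housekeeping genes 6 of 10 were lower beyond it. Aldh1l2 at -1.88, Psat1 at -1.59 and Phgdh at -1.01 were lower than in MEF, and Slc7a5 at 1.53 and Got1 at 1.07 higher. Macrophage markers were lower than in MEF in 10 of 10, with a median of -1.34 and Lyz2 at -3.75, and fibroblast markers in 9 of 12, with a median of -0.25. Of 9 neuron markers 6 were higher, 5 of them at least 2-fold, and 3 were lower, from Snap25 at 3.04 to Gap43 at -0.98. The median of the neuron markers was 1.003, and -0.013 with the floor at the 75th percentile. The part of these markers was not tested.

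The sample labelled endogenous parvalbumin neurons had low values for markers of such neurons. Of 10 markers of parvalbumin and GABAergic neurons, Gad2, Erbb4, Kcnc1, Kcnc2 and Tac1 were under the floor on all 6 arrays. The other 5 were above the floor on that array, against 3 or 4 on each other array. They had values there of 5.13 for Gad1, 5.05 for Slc32a1, 5.78 for Lhx6, 5.58 for Nxph1 and 5.48 for Pvalb, which had 6.29 in sorted cells. Of these 5, 4 were higher than in MEF, Nxph1 by 0.56, with a median of 0.25 that became -0.067 after housekeeping centring. The fibroblast gene Col1a1 was 12.34 there and 12.31 in MEF. Against MEF, 6 of the 10 stress genes were higher and 4 lower on that array, with a median of 0.071 that turned to -0.026 after quantile normalization and -0.23 after housekeeping centring. Higher by any amount were 54.4% of all genes. Sesn2 was higher by 1.24 (2.36-fold), the only gene of the 10 at least 2-fold different, against 3.53% of all genes, and by 0.94 under that centring. Xbp1 was higher by 0.56, and Asns and Chac1 were lower by 0.53 and 0.50, each beyond the spread of 0.42. With Sesn2, 2 genes were thus higher beyond the spread, against 17.5% of all genes, and 2 lower, against 11.7%. After housekeeping centring 1 was higher and 4 were lower beyond it. Psat1 was 1.19 and Aldh1l2 2.09 lower, and Tyrobp, a macrophage marker, was 1.70 higher, with a mean macrophage level of 6.80 against 6.46 in MEF; its part was not tested.

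The genes most like Ddit3 and Hspa5 were sought among 2330 other named genes whose floored values spanned at least 1 log2 unit, by Pearson correlation over the 6 arrays, given as a description. For Ddit3 the first was Fam13b, with r = 0.997, and it was still 0.997 over the 5 arrays without day 3. Fam13b had a log2 level of 7.98 in MEF and of 9.40, 7.79 and 8.59 at days 3, 7 and 14, with 7.82 in sorted cells and 8.07 on the endogenous PV array, the same order of arrays as Ddit3. Manf followed at 0.96, Arhgef2 at 0.95, Eprs at 0.94, Hyou1 and Dnajb11 at 0.93, and Akap12, Creld2, Krr1 and Taf15 at 0.92. Of these 10 genes 4 were on the chaperone list, but without day 3 r was 0.73 for Manf, 0.51 for Hyou1 and 0.25 for Creld2.

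For Hspa5 the first were Arhgef2 at 0.96, Fam13b at 0.95, Skil at 0.94, and Zbtb10, Dnajb11, Arntl and Ero1b at 0.93, followed by Prnd, Hyou1 and Twist2 at 0.92. Without day 3, r was 0.90 for Skil and 0.36 for Hyou1. With 6 points that share 1 array standing apart, r mostly describes day 3, and 17 genes reached 0.9 with Ddit3 and 20 with Hspa5.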

How the data were processed

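The authors deposited 1 table of log2 values for the 6 arrays, made with Affymetrix Expression Console, per the submitters' processing notes. Its algorithm, version and build were not given in the sources used here. Per the labels' protocols, biotin-labelled cRNA was made from 6 µg of total RNA per sample. Of 41345 probe sets, 5333 numbered below the first annotated one were treated as controls and left out. Names came from the platform annotation: 23521 probe sets had 1 symbol, 1814 had several and 10677 were unnamed here, and 23328 Entrez identifiers matched RefSeq genes of GRCm38.p6, with 0 symbols changed.

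Differences of floored log2 values were computed for 7 comparisons in Python 3.11.15 with pandas 2.3.3 and numpy 2.4.6. A check on simulated data required only that known changes be recovered on average, and set no limit on the count of 2-fold differences. With 1 array per group there is no test, and that number limits the precision. The probe set spread is the standard deviation, over 327 to 403 genes, of the difference between the log2 differences of a gene's 2 brightest probe sets, both above the floor on both arrays, divided by the square root of 2. Transcripts of 1 gene that truly differ widen it.

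The 10 genes, the 12 pathway lists and the 6 marker lists were chosen with earlier results of these data known. Named genes were the 10, up to 4 members of each list at least 2-fold different in a comparison, the sensors, kinases Eif2ak1 to Eif2ak4, Atf3 and Ppp1r15a, and the 10 genes most correlated with Ddit3 and with Hspa5. Other genes were named after their values were seen, among them Calr, Dnajc3, Pdia6, Fam13b's values, Psph, Cbs, further markers and the transporters in sorted cells. Some genes of the lists are not analysed here, and Cabp1, a neuronal calcium-binding protein, entered the chaperone list through an old name shared with Pdia6. Alternatives were quantile normalization, centring on housekeeping genes, the mean of all probe sets, no floor, a floor at the 75th percentile (6.58), and a 1.5-fold threshold. The centring subtracted the median level of 19 housekeeping genes on each array. It did not remove their median difference between arrays, which it left at -0.21 at day 3 and -0.31 at day 14 against MEF.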

Additional observations from a re-analysis of the deposited data

How the results depend on the processing

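The mean of all probe sets and the absence of a floor could not change the 10 genes, which have 1 probe set each and lie above the floor on every array. Under quantile normalization, centring on housekeeping genes and the higher floor, 193 of 203 values, 1 per gene, comparison and alternative, moved by less than the probe set spread and 15 changed sign. The 10 that moved by more were all 10 genes at day 14 against MEF under the centring. The centring shifts all 10 genes of a comparison by the same amount, so these values are not separate checks. The higher floor dropped Chac1 and could change only Trib3 in sorted cells and Sesn2 in MEF. The other genes lay above it on every array. None of the 36 values for differences of at least 2-fold changed sign, and 6 fell under 2-fold: at day 3 against MEF under centring on housekeeping genes Hspa5 (0.90), Herpud1 (0.92) and Dnajb9 (0.89), Trib3 in sorted against unsorted cells under that centring (-0.84) and with the floor at the 75th percentile (-0.98), and Sesn2 on the endogenous PV array (0.94, that centring). The centring thus left 1 gene at least 2-fold higher at day 3, 0 lower in sorted against unsorted cells and 0 higher on the endogenous PV array, and the median at day 14 against MEF became -0.061; the higher floor also left 0 in sorted against unsorted cells. At a 1.5-fold threshold the counts were 7 higher at day 3 against MEF, 4 at day 14 against day 7, 3 at day 14 against MEF, and 5 lower in sorted against unsorted cells and 1 lower in sorted cells against MEF. The centring moved the share of higher genes among all 2-fold differences from 46.7% to 20.9% at day 3, from 71.1% to 55.6% at day 7 against day 3 (56.2% with no floor), from 42.3% to 29.9% at day 14 against day 7, from 62.6% to 15.3% at day 14 against MEF, from 67.5% to 84.7% in sorted against unsorted cells (56.6% with no floor), from 69.1% to 36.6% in sorted cells against MEF (57.7% by quantile normalization) and from 68.8% to 29.3% on the endogenous PV array, where it shifted the median of all genes to -0.23, as it did to -0.19 in sorted cells against MEF. Under the centring 6 genes stayed higher beyond the spread at day 3. The median of the 10 genes minus that of all genes at day 3 was 0.86 and 0.84. No array could be left out. No paired analysis was possible because each group has 1 array and no result comes from a test. Without detection calls, values near the floor, such as those of Chac1, are limited by signal over background.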
